A study of Mus musculus with 18 samples.

Results

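The crystallin genes examined here are the 10 family members Cryaa, Cryab, Cryba1, Cryba2, Cryba4, Crybb1, Crybb2, Crybb3, Crygs and Crym, out of 21938 protein-coding genes of the mouse annotation. For each gene, every open chromatin peak that overlapped the stretch from 10 kb upstream of the gene start to the gene end (build mm10) was taken, which gave 171 of 911837 peaks. Peaks of different libraries that overlapped by at least 1 bp were merged into regions, and 20 of 99792 merged regions lay in the crystallin windows. The regions are named here by the gene and by the distance of the median peak summit from the gene start in bp, negative upstream.

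The data are peak lists from ATAC-seq (Assay for Transposase-Accessible Chromatin with sequencing, which marks DNA that a transposase can reach) of bulk retina from WT mice. There were 6 groups of 3 libraries. At 3 months (3mo) and at 18 months (18mo) of age they were retinas of mice with no pressure treatment (untreated), retinas of eyes held at a constant intraocular pressure of 30 mmHg for 1 hour on one side only (IOP), and the opposite eyes of pressure-treated mice (contralateral), the IOP and contralateral retinas being collected on day 2 according to the labels. The text of the study gives a later day for this assay, and which one holds is not known here. The treatment text shared by all samples also speaks of dasatinib or vehicle injections, and no label assigns either to a library. The comparisons ask how accessibility differed with age, after pressure, and between the 2 kinds of control eye. The labels do not say which libraries came from separate animals, so the p-values measure only the spread between these libraries. In bulk tissue, fewer cells of a type and less open chromatin per cell cannot be told apart.

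The α-crystallins Cryaa and Cryab belong to the small heat shock proteins and act as chaperones that hold unfolding proteins in solution. The β- and γ-crystallins (here the acidic Cryba1, Cryba2 and Cryba4, the basic Crybb1, Crybb2 and Crybb3, and Crygs) are structural proteins of the lens that are also made in the retina and other tissues, and Crym (mu-crystallin) is an unrelated enzyme that binds thyroid hormone. In the lens, transcription factors such as Pax6, Maf proteins and heat shock factors act on crystallin promoters.

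The libraries held between 36011 and 66160 peaks, and the number of reads behind them is unknown. The 6 untreated libraries stood apart from the other 12. Their shortest peaks measured 79 to 89 bp, against 114 to 157 bp in the contralateral and IOP libraries, a limit that belongs to the peak calling. The kind of control and this technical difference cannot be told apart. Markers of rods and cones were open as the retinal label says, with a peak within 1 kb of an annotated start in all 18 libraries for 7 of 8 genes.

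The sequences below, read from the reference genome (GRCm38.p6, the assembly behind mm10), are the regions on which the results turn. They are printed 5′ to 3′ on the strand of the gene, all of them the minus strand, with matches to the motifs searched in capitals. They are the upstream flank of the region at the Crybb3 start (chr5:113081585-113081805), the centre of the distal Crybb3 region (chr5:113091280-113091479, in an intron of 2900026A02Rik), the centre of the region before the Cryba2 start (chr1:74893479-74893678, between genes), the intronic Crybb2 region (chr5:113066823-113067022) and the distal Crygs region (chr16:22820870-22821067, in an intron of Tbccd1).
Crybb3 +7: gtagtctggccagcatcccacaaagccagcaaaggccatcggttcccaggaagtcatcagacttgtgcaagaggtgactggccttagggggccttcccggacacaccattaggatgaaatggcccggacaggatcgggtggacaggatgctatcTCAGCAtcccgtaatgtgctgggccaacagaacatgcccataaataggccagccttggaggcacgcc
Crybb3 -9796: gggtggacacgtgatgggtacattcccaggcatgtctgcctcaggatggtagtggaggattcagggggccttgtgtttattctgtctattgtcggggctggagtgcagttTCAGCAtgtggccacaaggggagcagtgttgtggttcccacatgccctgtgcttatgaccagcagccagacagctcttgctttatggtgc
Cryba2 -436: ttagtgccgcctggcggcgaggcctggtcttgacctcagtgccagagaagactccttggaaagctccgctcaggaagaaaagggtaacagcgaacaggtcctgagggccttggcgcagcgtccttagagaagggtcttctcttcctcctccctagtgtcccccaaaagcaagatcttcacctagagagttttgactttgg
Crybb2 +3194: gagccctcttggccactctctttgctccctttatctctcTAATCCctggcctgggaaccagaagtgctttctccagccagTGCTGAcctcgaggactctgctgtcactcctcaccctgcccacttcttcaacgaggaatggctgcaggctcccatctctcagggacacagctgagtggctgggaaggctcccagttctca
Crygs -9371: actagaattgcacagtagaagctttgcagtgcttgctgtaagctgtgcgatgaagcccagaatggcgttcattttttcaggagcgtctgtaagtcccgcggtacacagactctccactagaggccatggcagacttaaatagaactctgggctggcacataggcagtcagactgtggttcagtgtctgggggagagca

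The motifs were searched on both strands in the 200 bp around the median summit of each region, and the end of a Maf half-site can share its letters with the start of an AP-1 motif. The Maf half-site TGCTGA was in 5 of the 20 crystallin regions and in 18.1% of 73449 consensus regions (regions called in at least 2 libraries, on the standard chromosomes). Both Crybb3 regions held it once, as TCAGCA on the printed strand, and Crybb2 +3194 held it together with the Crx and Otx2 motif. This motif, with the letters TAATCC, was in 2 of 20 crystallin regions and in 15.4% of consensus regions. The heat shock element GAANNTTC was in 1 region, Cryba2 -8671, and in 3.33% of consensus regions, while the AP-1 motif TGANTCA was in 0 of 20 and 6.6%. Neither Cryba2 -436 nor Crygs -9371 held any of them. These matches are letters in a window and were not tested as binding sites.

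Most crystallin regions were weak and were called in few libraries. Of the 20 regions, 2 were called in all 18 libraries, 3 in 16 or 17, 4 in 9 to 12, 10 in 2 to 6 and 1 in a single library. Over all 73567 consensus regions, 33.6% were called in all 18. The median crystallin consensus region was called in 6 libraries, against 12 for all consensus regions. The median fold (the height of a peak over the local background of its own library, as deposited) was 4.60 over crystallin consensus regions and 5.26 over all of them. Per library, the median crystallin window held 0.583 peaks in 16.2 kb, and the median window of all protein-coding genes held 1.33 in 27.4 kb. By position, 11 of the 20 regions lay within 1 kb of an annotated start of some gene, 6 in introns and 3 between genes.

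**Figure D1:**
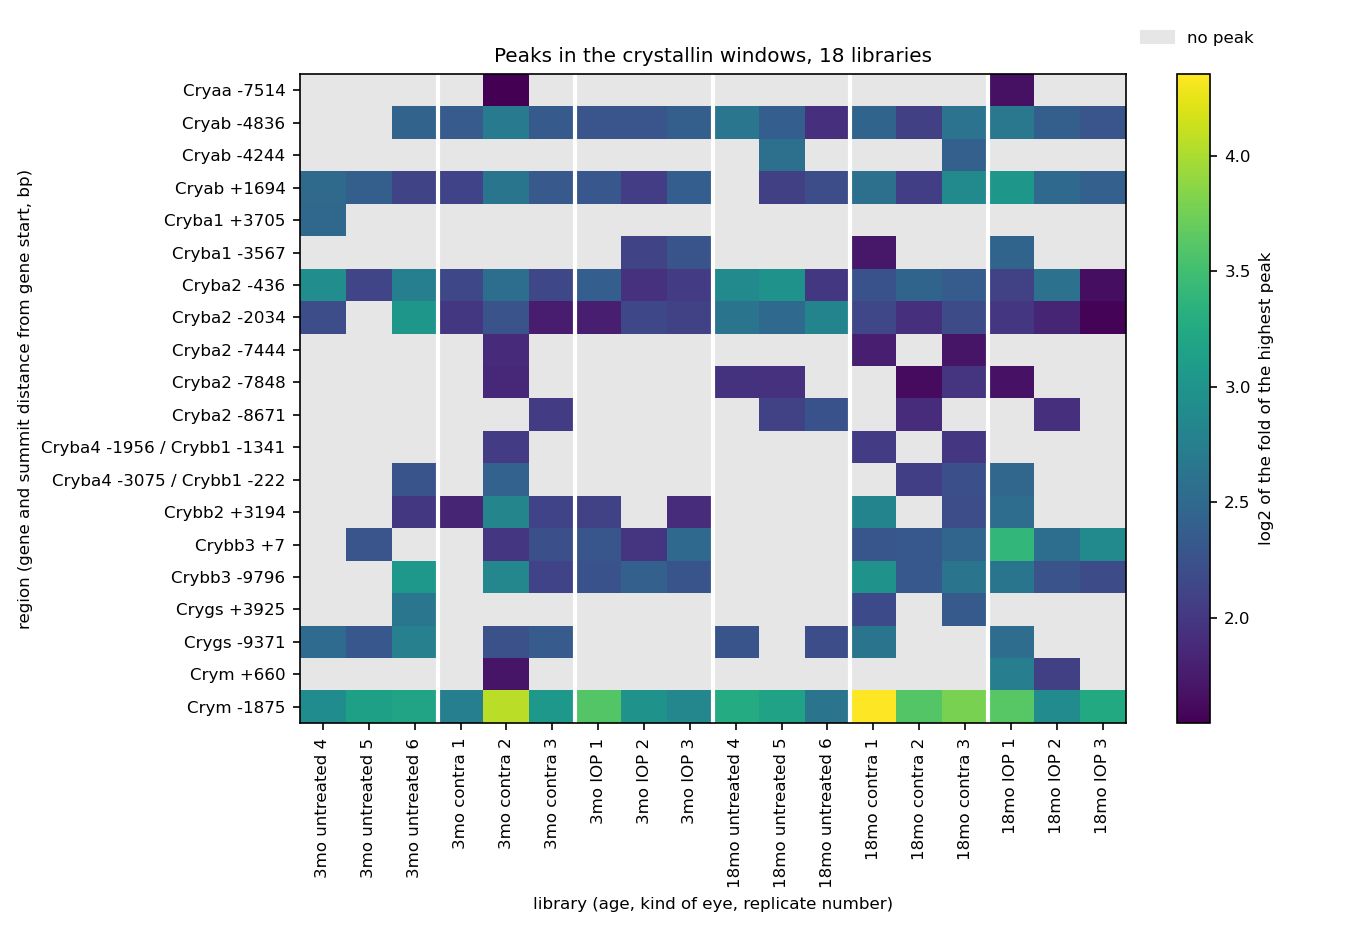
The log2 of the fold of the highest peak (colour) is plotted for the 20 crystallin regions (rows) in the 18 libraries (columns, 3 per group), with grey where no peak was called. Cryba2 -436 and Crym -1875 are filled in every column, and the 2 Crybb3 rows are filled in 11 of 12 contralateral and IOP columns but in 1 of 6 untreated columns each.

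At the gene starts, Cryba2 was the 1 member with a peak within 1 kb in all 18 libraries, while 5 members (Cryaa, Cryba1, Cryba4, Crybb2 and Crygs) had none in any library. Among all protein-coding genes, 53.5% had a start peak in all 18 libraries and 33.6% in none. The others were called in part: Cryab in 17 libraries, Crybb3 in 12, Crybb1 in 5 and Crym in 3. A gene without a peak had no position past the threshold of the peak calling, and the reads there were not analysed here.

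Of 13 other genes with crystallin names, 5 had a start peak in all 18 libraries and 8 in none. The open ones were Crybg1, Crybg3, Cryz, Cryl1 and Cryzl1, and those in none were Crygn, Crybg2 and Cryga to Crygf, the lens γ-crystallin cluster. Among 6 small heat shock protein genes, Hspb6 and Hspb11 were open at the start in all 18 libraries and Hspb3 in 9. Of 14 genes for transcription factors known to act on crystallin genes, 9 were open at the start in all 18 libraries, whereas Sox1 and Pitx3 were called in 0 and Foxe3, a lens factor, in 1.

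Markers of the lens, which a dissected retina can carry along, were near the bottom. None of 8 lens markers had a start peak in all libraries, and Mip and Lgsn, which mark lens fibres, had none in any. The lens fibre filament genes Bfsp1 and Bfsp2 had one in part, Bfsp1 in 1 of 6 untreated and 8 of 12 other libraries and Bfsp2 in 0 of 6 and 5 of 12. The number of lens markers with a start peak was 0 to 1 in untreated, 0 to 4 in contralateral and 0 to 3 in IOP libraries. None of 5 immune markers had a start peak in any library.

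**Figure D2:**
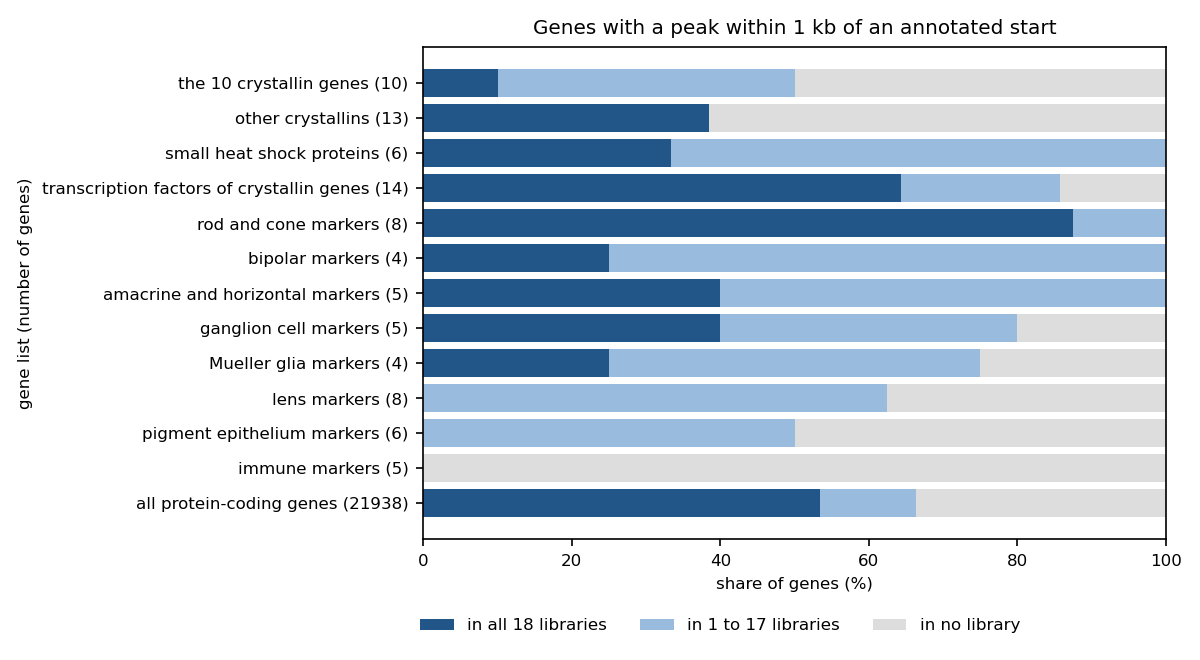
The bars give the share of genes (%) of each list with a peak within 1 kb of an annotated start in all 18 libraries, in 1 to 17 or in none. Of the 10 crystallin genes 1 falls in the first class and 5 in the last, against 53.5% and 33.6% of all protein-coding genes.

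Cryaa, the α-crystallin most restricted to the lens, was nearly blank. Its window held 1 region, Cryaa -7514 (chr17:31670203-31670402, between genes), with a fold of 2.91 in 3mo contralateral replicate 2 and 3.18 in 18mo IOP replicate 1. Both peaks ranked in the lowest 3.42% of their library by −log10 q.

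Cryab, the α-crystallin that many tissues express under stress, had 2 regions that were called nearly throughout. Cryab +1694 (chr9:50752830-50753256) sat within 1 bp of further annotated Cryab starts, over an exon of the gene, and was called in 17 libraries with folds from 4.14 to 8.20. Cryab -4836 (chr9:50746045-50746945) lay 47 bp from the start of 2310030G06Rik and was called in 16 libraries with folds from 3.79 to 6.58. The window also holds the start of Hspb2, the small heat shock gene that neighbours Cryab head to head. The remaining region, Cryab -4244, was called in 18mo untreated replicate 5 and 18mo contralateral replicate 3.

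Cryba1 had no start peak. Cryba1 -3567 (chr11:77728617-77729147, in an intron of Nufip2) was called in 4 libraries, with folds of 4.34 and 4.85 in 3mo IOP replicates 2 and 3, 3.30 in 18mo contralateral replicate 1 and 5.45 in 18mo IOP replicate 1. Cryba1 +3705, in an intron, was called in 3mo untreated replicate 4 alone.

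Cryba2 was the most marked member, with 5 regions and 1 to 5 peaks per library. Cryba2 -436 (chr1:74892799-74893775) was called in every library, with folds of 7.61, 4.38 and 6.77 in 3mo untreated, 4.46, 5.88 and 4.45 in 3mo contralateral, and 5.22, 3.84 and 4.10 in 3mo IOP retinas. At 18mo the folds were 7.34, 7.94 and 3.99 in untreated, 4.76, 5.47 and 5.15 in contralateral, and 4.25, 6.10 and 3.13 in IOP retinas. The groups overlapped throughout. Although it was called everywhere, it was weak, since its median fold of 4.46 stood at the 4.37 percentile of the 24751 regions called in all libraries, whose median was 8.65.

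The second Cryba2 region, Cryba2 -2034 (chr1:74895040-74895355, between genes), was missing only from 3mo untreated replicate 5 and had folds from 2.97 to 8.19. The other 3 regions lay 7444 to 8671 bp upstream, near the starts of Mir375 (134 and 270 bp away) and Gm15841 (557 bp). At least 1 of these 3 was called in 0 of 3 untreated, 2 of 3 contralateral and 0 of 3 IOP libraries at 3mo, and in 3 of 3, 3 of 3 and 2 of 3 at 18mo. Taken singly, none of the 3 was called in every untreated library at 18mo, and their folds ran from 3.08 to 4.76. How often other windows show such a joint split was not counted. These 3 regions belong to the Cryba2 window by distance, and nothing here assigns them to a gene.

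Cryba4 and Crybb1 lie head to head and share their 2 regions. Crybb1 -222 (chr5:112255493-112255723) was called in 5 libraries, with folds of 4.84 in 3mo untreated replicate 6, 5.38 in 3mo contralateral replicate 2, 4.17 and 4.70 in 18mo contralateral replicates 2 and 3, and 5.54 in 18mo IOP replicate 1. Crybb1 -1341, 1956 bp before the Cryba4 start, was called in 3 contralateral libraries with folds of 3.98 to 4.14. None of the other 15 libraries had a peak there.

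Crybb2 had 1 region, in an intron. Crybb2 +3194 (chr5:113066704-113067131) was called in 9 libraries, in 1 of 6 untreated, 5 of 6 contralateral and 3 of 6 IOP retinas, with folds from 3.57 to 7.09. The highest value, 7.09, was that of 3mo contralateral replicate 2.

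Crybb3 had a region at its own start and one 9796 bp upstream, each called in 12 libraries. Crybb3 +7 (chr5:113081245-113081805) overlapped an exon of the gene and includes the flank printed above, with a fold of 4.86 in 3mo untreated replicate 5, 3.98 and 4.69 in 3mo contralateral replicates 2 and 3, and 4.92, 3.95 and 5.65 in 3mo IOP retinas. At 18mo the folds were 4.90, 4.97 and 5.51 in contralateral and 10.6, 5.91 and 7.33 in IOP retinas, with no peak in untreated ones. The 3 IOP retinas at 18mo thus held the 3 highest values of the region.

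The distal region Crybb3 -9796 (chr5:113091072-113091639) had folds of 8.23 in 3mo untreated replicate 6, 7.18 and 4.30 in 3mo contralateral replicates 2 and 3, and 4.76, 5.32 and 4.84 in 3mo IOP retinas. At 18mo it had 7.95, 4.97 and 6.18 in contralateral and 6.21, 4.79 and 4.58 in IOP retinas, again with none in untreated ones. Here the IOP and contralateral values overlapped.

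**Figure D3:**
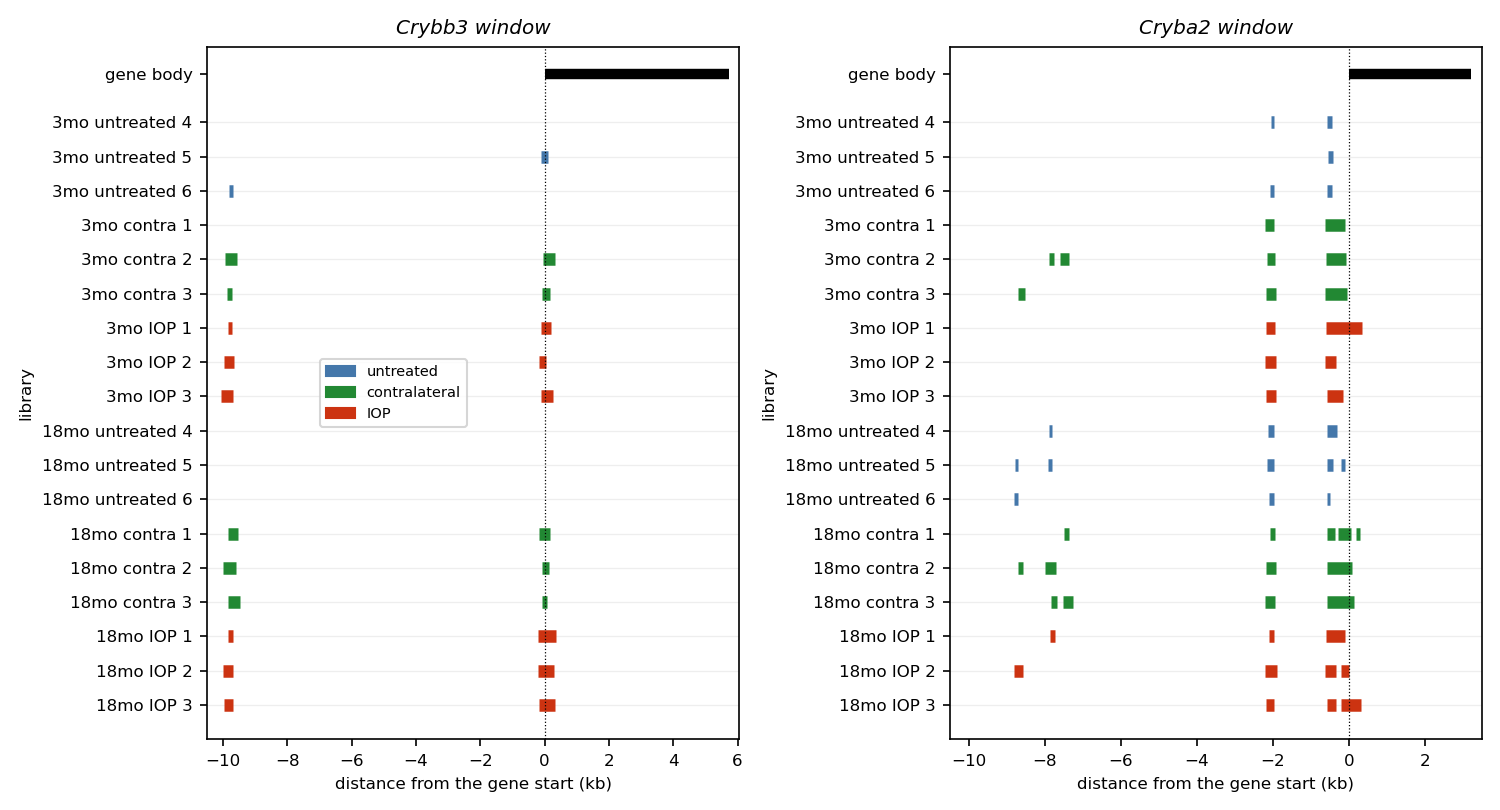
Each bar is a called peak, placed by its distance from the gene start (kb) in the Crybb3 and Cryba2 windows, with 1 line per library coloured by kind of eye and the gene body in black. In the Crybb3 window 11 of 12 contralateral and IOP libraries have both peaks and 0 of 6 untreated libraries do, and in the Cryba2 window the peaks 7444 to 8671 bp upstream are mostly in 18mo libraries.

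Crygs, the γ-crystallin that persists in the adult lens, had no start peak. Crygs -9371 was called in 9 libraries, with folds of 5.78, 4.94 and 6.83 in the 3mo untreated retinas and 4.73 and 5.08 in 3mo contralateral replicates 2 and 3. At 18mo it had 4.83 and 4.63 in untreated replicates 4 and 6, 6.18 in contralateral replicate 1 and 5.87 in IOP replicate 1. It was the only consensus crystallin region with a larger share of untreated than of contralateral libraries called (5 of 6 against 3 of 6). Crygs +3925, in an intron, was called in 3 libraries.

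Crym had a weak region in an intron and a stronger one upstream that sits at another gene. Crym +660 (chr7:120201356-120201573) was called in 3mo contralateral replicate 2 and in 18mo IOP replicates 1 and 2, with folds of 3.26, 6.71 and 4.21. Crym -1875 (chr7:120203779-120204120) was 22 bp from the start of Abca14, was called in all 18 libraries, and had a median fold of 9.04, at the 53.9 percentile of such regions.

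With age, no crystallin region passed the test for being called more or less often. The 12 control libraries were compared, 6 at 18mo against 6 at 3mo, by a two-sided Fisher's exact test, adjusted by the Benjamini-Hochberg method over every region whose number of calls could reach an unadjusted p of 0.05. Of 4 testable crystallin regions 0 passed, and 0 had an unadjusted p under 0.05. Over all 9868 testable regions 0% passed after adjustment and 3.58% did so before it. The largest age difference was in Cryba2 -7848, called in 4 of 6 libraries at 18mo and 1 of 6 at 3mo (50.0 percentage points, exact p = 0.242, adjusted p = 1).

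The number of peaks per window differed most with age for Cryba2, and not past the threshold after adjustment. Its windows held 2, 1 and 2 peaks in 3mo untreated and 2, 4 and 3 in 3mo contralateral retinas. At 18mo they held 3, 5 and 3 in untreated and 5, 4 and 4 in contralateral retinas. Part of these were several peaks in the one region Cryba2 -436, which held 2 peaks in 18mo untreated replicate 5 and 3 in 18mo contralateral replicate 1, and 1 in every other control library. The means were 2.33 at 3mo and 4 at 18mo, a difference of 1.67 peaks (two-sided exact permutation test over 924 arrangements, p = 0.0325, adjusted p = 1 over 17119 genes). Both kinds of control had the higher mean at 18mo, 3.67 against 1.67 in untreated and 4.33 against 3 in contralateral retinas. Among the 17119 genes 1.73% had an unadjusted p under 0.05 and 0% an adjusted one. For the other 9 members the unadjusted p was 0.567 or more, and with equal numbers of peaks per library no member had an unadjusted p under 0.05. The Cryba2 difference itself was then 0 peaks, and it was 0.667 peaks in a window from 2 kb upstream.

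**Figure D4:**
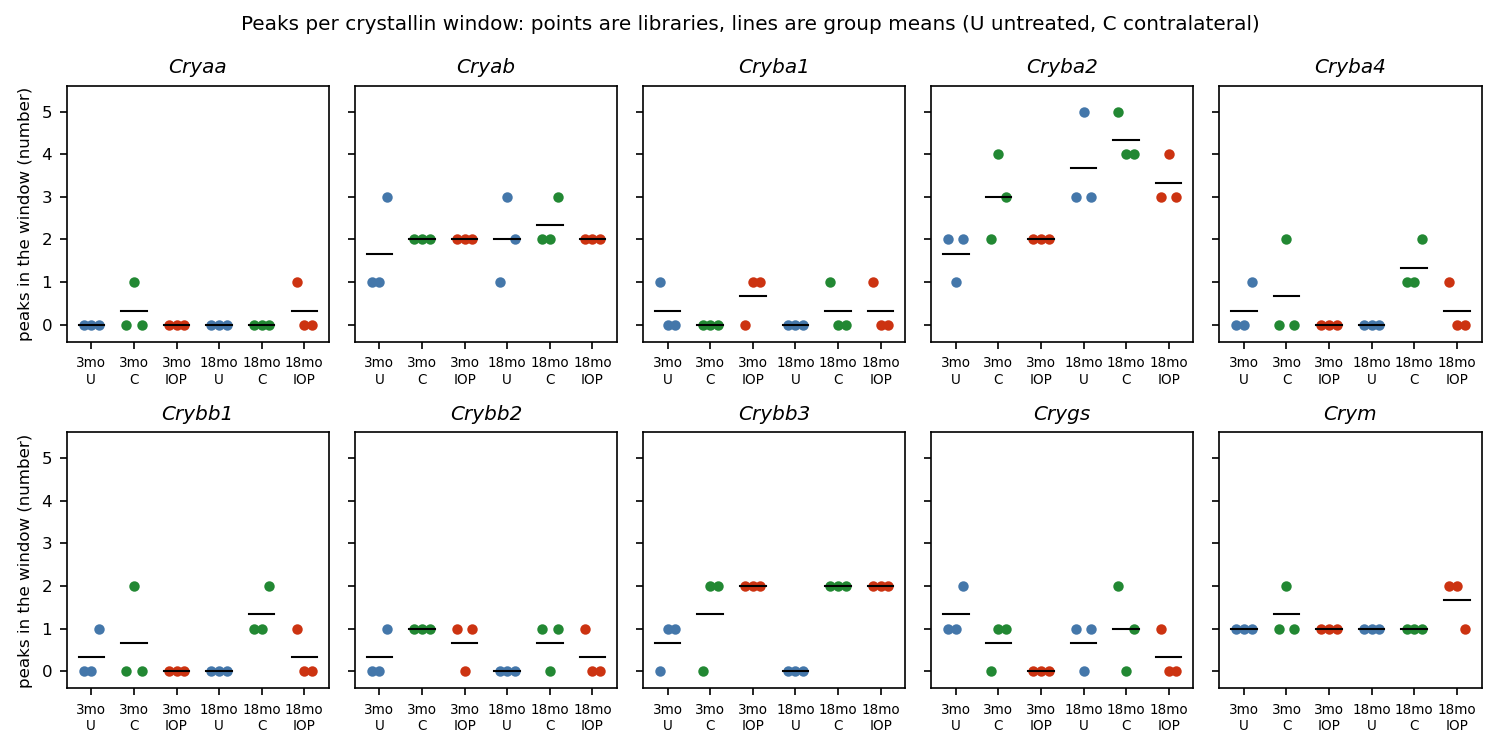
The number of peaks in each crystallin window is plotted for every library (points) by group, with the group means as lines. Cryba2 runs from 1 to 5 peaks and is higher at 18mo within each kind of eye, and Crybb3 holds 2 peaks in 11 of 12 contralateral and IOP libraries and 0 or 1 in the untreated libraries.

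After pressure, no crystallin region was gained or lost at either age, that is, called in 3 of 3 IOP libraries and 0 of 3 contralateral ones or the reverse. Over all consensus regions 0.217% were gained and 0.241% lost at 3mo, and 0.239% were gained and 2.23% lost at 18mo. Such a 3 against 3 comparison cannot give an exact p under 0.10. With both ages combined in a test stratified by age, no crystallin region had a number of calls that could reach 0.05, so the test says nothing about them. Of the 5572 regions that could, 0% passed after adjustment and 5.04% before it.

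By direction, 9 of 19 crystallin consensus regions were called in fewer and 4 in more IOP than contralateral libraries. Over all consensus regions the shares were 36.6% and 11.5%. These include more regions called in all 18 libraries, which cannot differ (33.6%, against 2 crystallin regions). The largest differences, 50.0 percentage points, were in Cryba2 -7444 and Crybb1 -1341, each called in 3 of 6 contralateral and 0 of 6 IOP libraries (stratified exact p = 0.20 for both). In the peak numbers, 0 of 10 members passed before or after adjustment, against 1.16% and 0% of genes, with Cryba2 lowest in p (1 peak fewer after IOP, permutation p = 0.06, adjusted p = 1).

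The start of Crybb3 differed between IOP and contralateral retinas at 18mo in rank, a pattern chosen after its values were seen. By −log10 q its peak stood between the 51.2 and 70.0 percentiles of its library in the 3 IOP retinas and between the 23.9 and 33.3 percentiles in the 3 contralateral retinas, without overlap. Of 29668 regions called in all 6 libraries, 1.19% had every IOP library above every contralateral one, and 27% had every one below. Among the 7 crystallin regions in that set 1 was above (Crybb3 +7) and 2 below (Cryba2 -2034 and Crym -1875). At 3mo the Crybb3 values overlapped. With 3 libraries against 3 the smallest two-sided exact permutation p is 0.10, and the difference was not tested further.

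Strength could be tested in 2 crystallin regions, Cryba2 -436 and Crym -1875, with limma on the log2 fold of the 24751 regions called in all libraries, each library centred on its median. Neither passed the test for a change with age or after pressure. For Cryba2 -436 the age difference was -0.07 ± 0.16 (log2, SE, adjusted p = 0.855), and for Crym -1875 it was 0.17 ± 0.16 (adjusted p = 0.637). After IOP at 18mo Crym -1875 differed by -0.43 ± 0.23 (adjusted p = 0.393) and Cryba2 -436 by -0.02 ± 0.23 (adjusted p = 0.973).

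The other pressure contrasts gave the same count of 0 of 2 regions, before and after adjustment. At 3mo the IOP differences were -0.12 ± 0.23 for Cryba2 -436 and -0.09 ± 0.23 for Crym -1875 (limma adjusted p = 1.000 for both). The difference between the ages in the IOP effect was 0.10 ± 0.32 for Cryba2 -436 (limma adjusted p = 0.944) and -0.34 ± 0.32 for Crym -1875 (limma adjusted p = 0.836). Of all regions tested, 0.303% changed with age, 0.00404% after IOP at 3mo, 0.101% at 18mo, 0.137% over both ages, and 0% differed between ages in the IOP effect.

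Between the 2 kinds of control eye, both Crybb3 regions were each called in 1 of 6 untreated and 5 of 6 contralateral retinas (-66.7 percentage points, exact test stratified by age, p = 0.095, adjusted p = 0.381). Crybb2 +3194 had the same 1 of 6 and 5 of 6 (p = 0.08, exact) but could not reach 0.05 at its number of calls. Of 2 testable crystallin regions 0 passed, while over 6205 testable regions 0% passed after adjustment and 18.2% before it.

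Seen over all libraries, each Crybb3 region was called in 1 of 6 untreated and 11 of 12 other libraries, a split shared by 0.26% of consensus regions and noticed after the values were seen. With equal numbers of peaks per library, Crybb3 +7 was called in 0 of 6 untreated, 1 of 6 contralateral and, at 3mo and 18mo, in 1 and 3 of 3 IOP retinas, so that its difference between untreated and contralateral retinas went from -66.7 to -16.7 percentage points. It was -33.3 percentage points when peaks had to cover 50% of the region. In direction, 14 of 19 crystallin consensus regions were called in fewer untreated than contralateral retinas and 1 in more, against 32.4% and 20.4% of all consensus regions. Regions called in all 18 libraries cannot differ, and these were 33.6% of all consensus regions but only 2 of the crystallin ones. The shares are therefore not directly comparable. The Crybb3 window held 0.333 peaks on average in untreated and 1.67 in contralateral retinas (difference -1.33, exact permutation p = 0.03, adjusted p = 0.423). The difference was -0.50 peaks with equal numbers of peaks per library (permutation, adjusted p = 0.917) and -0.67 in the window from 2 kb upstream (permutation, adjusted p = 0.688). Among all genes 8.26% had an unadjusted p under 0.05 and 0% an adjusted one.

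Markers of several cell types were also called less often in untreated libraries. Among those of the retina, Grm6 of bipolar cells was called at the start in 0 of 6 untreated and 9 of 12 other libraries, and Pou4f2 of ganglion cells and Rlbp1 of Mueller glia each in 1 of 6 and 8 of 12. Of 6 markers of the pigment epithelium, the cell layer behind the retina, 0 to 2 had a start peak in untreated, 2 to 3 in contralateral and 2 to 3 in IOP libraries. Best1 was called at the start in 1 of 6 untreated and 12 of 12 other libraries and Pmel in 0 of 6 and 8 of 12. Ttr was called in 5 of 6 and 12 of 12, while Rpe65, Tyr and Mlana had no start peak in any library. Shortest peak length also set the untreated libraries apart. The part of any of these cell types, the lens included, in the Crybb3 difference was not tested, and kind of control and peak length cannot be told apart.

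In strength, Crym -1875 was lower in untreated than in contralateral retinas and Cryba2 -436 did not pass. The folds of Crym -1875 were 7.51, 8.79 and 9.11 in 3mo untreated and 9.67, 8.98 and 6.17 in 18mo untreated retinas. They were 6.75, 16.8 and 8.21 in 3mo contralateral and 20.5, 12.1 and 13.9 in 18mo contralateral retinas. On the raw fold the groups overlapped at 3mo and were apart at 18mo, and after centring every contralateral value lay above every untreated one. The difference was -0.88 ± 0.16 (log2, SE, limma adjusted p = 0.000438), against -0.04 ± 0.16 for Cryba2 -436 (limma adjusted p = 0.860).

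This count, 1 of 2 crystallin regions, stands beside 34.1% of all 24751 regions that passed in the same contrast, 3446 higher and the rest lower in untreated retinas. With quantile normalization the split was 4374 higher of 8487, and Crym -1875 had an adjusted p of 0.000466. With regions called in at least 16 libraries, a choice made after the data were seen, 3 of 5 crystallin regions passed, against 32.6% of 30252 regions. They were Crym -1875, Cryab +1694 (-0.52 ± 0.13, limma adjusted p = 0.00494) and Cryab -4836 (-0.44 ± 0.14, limma adjusted p = 0.0253), all lower in untreated retinas, and libraries without a peak were left out of that fit. Cryba2 -2034 had 0.23 ± 0.12 (limma adjusted p = 0.162).

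**Figure D5:**
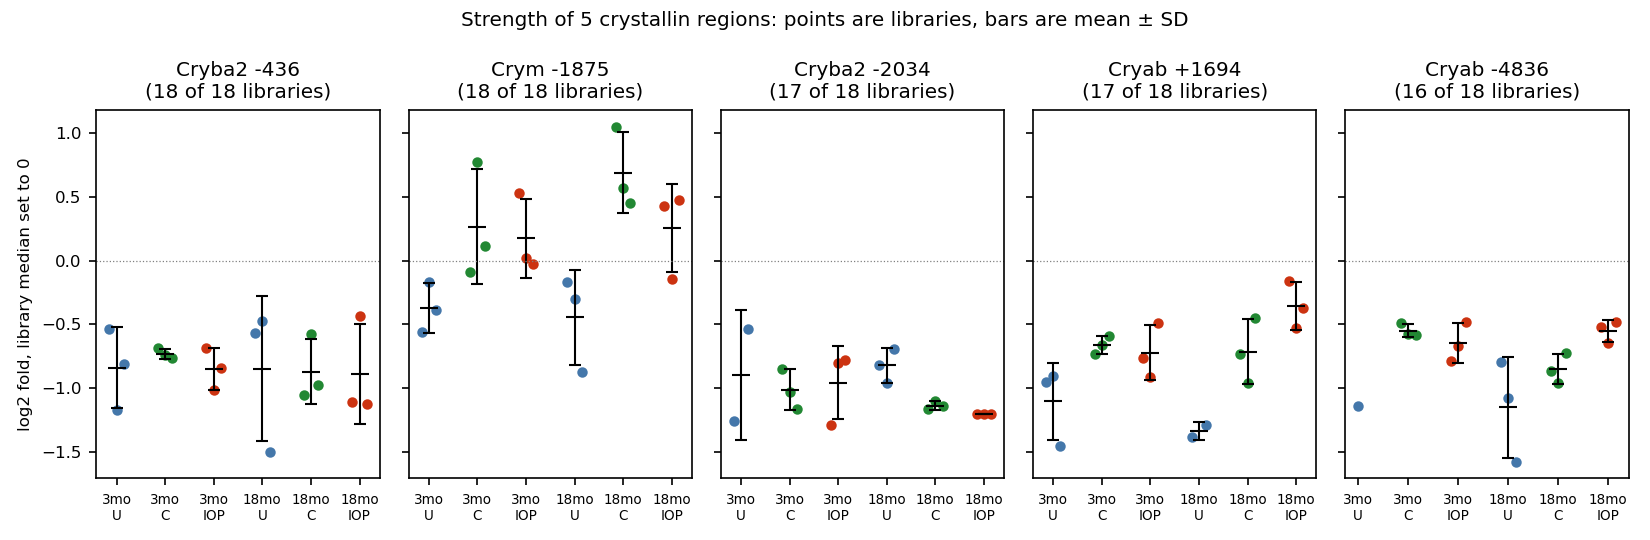
The log2 fold, with the median of each library set to 0, is plotted for the 5 crystallin regions called in at least 16 libraries, with points for libraries and bars for the mean and SD of a group. Crym -1875 has its 6 untreated values below its 6 contralateral values, whereas those of Cryba2 -436 overlap.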

How the data were processed

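Peak lists of 18 mouse retina libraries were used. Per the submitters' processing notes the build was mm10 and the tools included STAR 2.7.8a, MACS2, HOMER, edgeR and bedtools 2.29.2. The authors called peaks per library with MACS2 at a q-value of 0.05, without pooling replicates. The deposited columns hold a score, the fold (a ratio of summit height to local background), −log10 p and −log10 q. They hold no read counts, so depth is unknown. The extraction text of the labels describes crosslinking and an antibody step, whereas the study's methods describe tagmentation of fresh nuclei.

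Members and lists were chosen with earlier results of these data known. Peaks overlapping by 1 bp were merged, and regions in at least 2 libraries were consensus regions. Gene starts came from GENCODE M21 (basic set). All 10 members were named, and of the fixed gene lists only genes with the highest or lowest shares of start peaks, besides markers that moved with a result. Calls were tested with Fisher's or stratified exact tests, peak numbers with exact permutation tests, and log2 fold of the highest peak with limma 3.58.1 (R 4.3.3; trend, robust), fitting 6 group means. All adjustments ran over every region or gene that could be tested in the comparison, with a threshold of 0.05. Scripts ran in Python 3.11.15 with scipy 1.17.1 and were tested on simulated data. Alternatives were stricter q-values, equal numbers of peaks, 50% cover, a 2 kb window, other normalizations and leaving out each library.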

Additional observations from a re-analysis of the deposited data

How the results depend on the processing

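Of the counts that answer a comparison, 344 values under the alternatives stayed within 1.5 times the main count and 13 did not. A main count of 0 that stayed 0 was scored as unchanged. This includes the IOP test on calls, which no crystallin region could pass in the main setting, so the 344 do not measure stability. With equal numbers of peaks per library, 13 in place of 20 crystallin regions remained, 0 in place of 2 were called in every library, and 1 (Crybb3 +7) was gained after IOP at 18mo, where 0.927% of regions were. A window from 2 kb upstream held 11 regions. When peaks had to cover 50% of a region, 0 were called in every library. With this cover 1 (Cryab -4836) was gained after IOP at 3mo, where 0.352% of 69050 regions were. A further 2 (Cryba2 -436 and Crym -1875) were called less often in untreated than contralateral retinas, where 64.6% of 10543 regions passed. This setting counts narrow peaks as absent, and untreated peaks were shorter. The fit on regions in at least 16 libraries, added after the data were seen, called 3 of 5 in place of 1 of 2 in the untreated contrast. Of all regions in that fit 32.6% passed.

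Leaving out 1 library loosened the criterion for gained or lost regions, since its group then had only 2 libraries. This gave 0 to 1 such crystallin regions at 3mo. Crygs -9371 was lost without contralateral replicate 1, as were 1.39% of all regions. Cryba1 -3567 was gained without IOP replicate 1, as were 0.643%. At 18mo it gave 0 to 3. Cryba2 -7444, Crygs +3925 and Crybb1 -1341 were lost without contralateral replicate 2, as were 5.29% of all regions. Crym +660 was gained without IOP replicate 3, as were 0.783%. In the untreated strength contrast 1 to 2 crystallin regions were called, the higher without 18mo untreated replicate 4. There 3 crystallin regions could be tested, Cryab +1694 being added, and 7277 of all 24845 regions passed. Before adjustment, no crystallin gene passed for peak number with age under 8 alternatives (equal numbers of peaks, the 2 kb window and 6 removals of 1 library), nor for kind of control under 9.

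Differences of Cryba2 -436 that did not pass the test changed sign when 1 library was left out. They ran from -0.25 to 0.13 for IOP at 18mo, -0.18 to 0.0051 for IOP at both ages, -0.13 to 0.25 for the age difference in the IOP effect, -0.17 to 0.091 for age and -0.14 to 0.12 for untreated against contralateral. With percentile ranks, the age difference in the IOP effect was -10.4 and the age difference 0.650 percentile points. Crym -1875 ran from -0.27 to 0.16 for IOP at 3mo. The cause was not tested.

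The replicate numbers of IOP and contralateral libraries were not shown to pair eyes of 1 animal, since 3 of 6 same-numbered pairs deviated together with a correlation over 0.1 (range -0.31 to 0.36), and 3 of 6 IOP libraries correlated best with their own number. With the replicate block, 0 crystallin regions passed in any of the 4 IOP strength contrasts or in the sign test on calls. Over all regions the block called 1 in place of 25 after IOP at 18mo, 0 in place of 1 at 3mo and 5 in place of 34 over both ages. Percentile ranks called 2987 in place of 8428 regions in the untreated contrast, 18 in place of 75 with age, 1 after IOP at 18mo, 2 at 3mo and 10 over both ages. With IOP over both ages 18 of 34 called regions were higher, and 17 of 26 with quantile normalization.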
